A study of Mus musculus with 14 samples.

Results

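The genes described here are 5 genes of cholinergic neurons, the nerve cells that release acetylcholine: Chat, Slc5a7, Slc18a3, Isl1 and Ache. They were taken by gene symbol from the 55421 mouse genes that were counted, and all 5 were measured. The RNA came from the brainstem of 7 mice aged 2 to 3 months at infusion, in a cross of Th-Cre with Slc6a2-eGFP/Rpl10a on a C57Bl/6 background. In this cross Cre is driven by the gene of tyrosine hydroxylase, and a green-fluorescent ribosomal protein is driven by the gene of the noradrenaline transporter, so that tagged ribosomes are meant to mark noradrenergic neurons. The locus coeruleus, the main noradrenergic nucleus of the brainstem, was infused with P364S mutant human tau in 4 mice (animals B, C, L and M, called Tau) or with EYFP, a fluorescent protein used as the control, in 3 mice (animals H, I and K). Both groups carried the Cre and the tagged ribosome, so neither is a mouse without them. From each mouse the total homogenate (pre-IP) and the fraction immunoprecipitated on the tagged ribosomes (IP) were sequenced, which gave 14 libraries. Each animal is 1 replicate. The cholinergic genes are not the genes that the immunoprecipitation was built to capture, and the values below give their level in the tissue and what remained of them in the precipitate.

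Acetylcholine is made from choline and acetyl-CoA by choline acetyltransferase, the product of Chat. The high-affinity choline transporter, from Slc5a7, returns choline to the nerve terminal, and the vesicular acetylcholine transporter, from Slc18a3, loads the transmitter into synaptic vesicles. Acetylcholinesterase, from Ache, splits acetylcholine after release and is also made by neurons that do not release it, noradrenergic neurons of the locus coeruleus among them. Isl1 is a LIM-homeodomain transcription factor of motor neurons and of forebrain cholinergic neurons, and is also found in other neurons. In the brainstem, cholinergic neurons are known as the motor neurons of the cranial nerves and as the pedunculopontine and laterodorsal tegmental groups, which lie close to the locus coeruleus.

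In GRCm38 (mm10), Chat (ENSMUSG00000021919.8) lies on the minus strand at chr14:32408203-32465989. Slc18a3 (ENSMUSG00000100241.1) lies on the same strand at chr14:32462438-32464850, inside an intron of Chat, and consists of 1 exon. The pair shares 0 exon bases, and Gm2990, an antisense gene that overlaps the Chat span, shares 0 exon bases with it. Intron RNA of Chat that reaches the Slc18a3 exon could still be counted as Slc18a3, which was not tested. Slc5a7 (ENSMUSG00000023945.7) lies at chr17:54273590-54299034 and Isl1 (ENSMUSG00000042258.13) at chr13:116298281-116309689, both on the minus strand. Ache (ENSMUSG00000023328.14) lies on the plus strand at chr5:137287519-137294466, and 98 of its exon bases (2.12%) are shared with the opposite-strand Gm42456. Gm42456 had 0 to 15 counts per library, so little of the Ache count could be confused with it.

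Chat and Slc18a3 lie in a single locus. Slc5a7, the member that passed the main, unpaired test of IP against pre-IP, lies on another chromosome. For this reason the sequences before the starts of these genes are shown. They are the RefSeq sequences of GRCm38.p6, minus strand, 5′ to 3′, ending at the base before the start; for Chat the window of 250 bases was cut to the 170 bases outside the annotated gene. Capitals mark a match to a searched motif. The Chat window is chr14:32465990-32466159, the Slc18a3 window chr14:32464851-32465100 and the Slc5a7 window chr17:54299035-54299284.
Chat: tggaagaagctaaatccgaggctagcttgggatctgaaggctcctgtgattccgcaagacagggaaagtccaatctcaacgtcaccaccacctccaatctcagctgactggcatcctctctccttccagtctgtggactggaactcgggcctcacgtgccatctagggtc
Slc18a3: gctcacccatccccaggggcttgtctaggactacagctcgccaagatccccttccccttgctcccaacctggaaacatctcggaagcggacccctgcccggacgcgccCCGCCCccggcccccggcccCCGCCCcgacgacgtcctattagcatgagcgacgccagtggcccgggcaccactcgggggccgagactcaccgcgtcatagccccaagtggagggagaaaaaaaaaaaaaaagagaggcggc
Slc5a7: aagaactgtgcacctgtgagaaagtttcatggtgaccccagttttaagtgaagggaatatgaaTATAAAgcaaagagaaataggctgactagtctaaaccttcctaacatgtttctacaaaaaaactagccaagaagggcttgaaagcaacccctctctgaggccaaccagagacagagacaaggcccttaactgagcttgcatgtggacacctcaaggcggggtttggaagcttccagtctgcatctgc
All 5 genes matched a RefSeq promoter, and motifs were searched on both strands in the 250 bases before each start of 32851 promoters. GGGCGG, the core of a GC box, stood 142 and 122 bases before the Slc18a3 start as its reverse complement and at 4 places in the Ache window, within runs of G, where some matches follow each other closely. This motif was in 32.7% of all promoters. TATAAA stood 187 bases before the Slc5a7 start and was in 12.4% of all promoters. TAATTA (4.84% of promoters) and TGACGTCA (1.55%), the cores bound by homeodomain and CREB proteins, and a version of the motif of the repressor REST (0.0335%) matched in none of the 5 windows. The GC content was 66% in the Slc18a3 window and 45.6% in the Slc5a7 window, against a median of 52.4% over all promoters.

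Libraries held 41843489 to 65664551 counts, so that 3 counts, the floor used here, corresponded to 0.0457 to 0.0717 counts per 1000000 counts of the library (CPM). The lowest member count in any library was 105, for Isl1. The RNA integrity number was 4.2 in the IP library of EYFP animal I and 7.7 to 9 in the others. The RNA concentration of the IP fraction was 0.1, 0.8, 0.2 and 0.5 ng per microlitre in Tau animals B, C, L and M. It was 2.8, 1.6 and 0.7 ng per microlitre in EYFP animals H, I and K. Its part in the IP values was not tested. The human tau construct had 408 and 398 counts in the pre-IP and IP libraries of EYFP animal K, against 2 to 18 in the other EYFP libraries and 3527 to 47177 in Tau libraries. Animal M, labelled female, had 674 and 1153 counts of 4 Y-linked genes in its pre-IP and IP libraries, while C, H and K, also labelled female, had 0 to 4. A list of 12 noradrenergic genes rose from pre-IP to IP by a mean of 3.55 to 4.69 (log2) in Tau animals B, C and L, by 1.71 in Tau animal M and by 0.63 to 0.91 in the EYFP animals. Each Tau animal was above each EYFP animal in this measure.

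In the homogenate the genes of acetylcholine synthesis and transport were scarce beside Ache. Chat, measured in pre-IP libraries, had 9.86, 10.04, 10.09 and 15.7 CPM in Tau animals B, C, L and M and 8.51, 6.90 and 20.2 CPM in EYFP animals H, I and K. Animals M and K were the highest of their groups, and the groups overlapped. Slc18a3 had 28.5, 26.3, 35.3 and 49.6 CPM in B, C, L and M and 26.3, 24.5 and 51.8 CPM in H, I and K. M and K were again the highest. Slc5a7 had 7.62, 7.35, 5.15 and 8.45 CPM in the Tau animals and 6.26, 7.10 and 11.8 CPM in the EYFP animals, in the same order of letters. Animal K was highest here as well, and Tau animal L was lowest.

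Isl1, the transcription factor, ran the other way across animals. Its pre-IP level was 4.65, 6.90, 4.80 and 2.10 CPM in B, C, L and M and 4.92, 6.64 and 2.23 CPM in H, I and K. The animals with the most Chat and Slc18a3, M and K, thus had the least Isl1. Ache had 321, 272, 297 and 366 CPM in the Tau animals and 253, 265 and 389 CPM in the EYFP animals, again highest in M and K. Counts of a whole piece of tissue cannot tell fewer cells of a type from less RNA per cell.

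**Figure D1:**
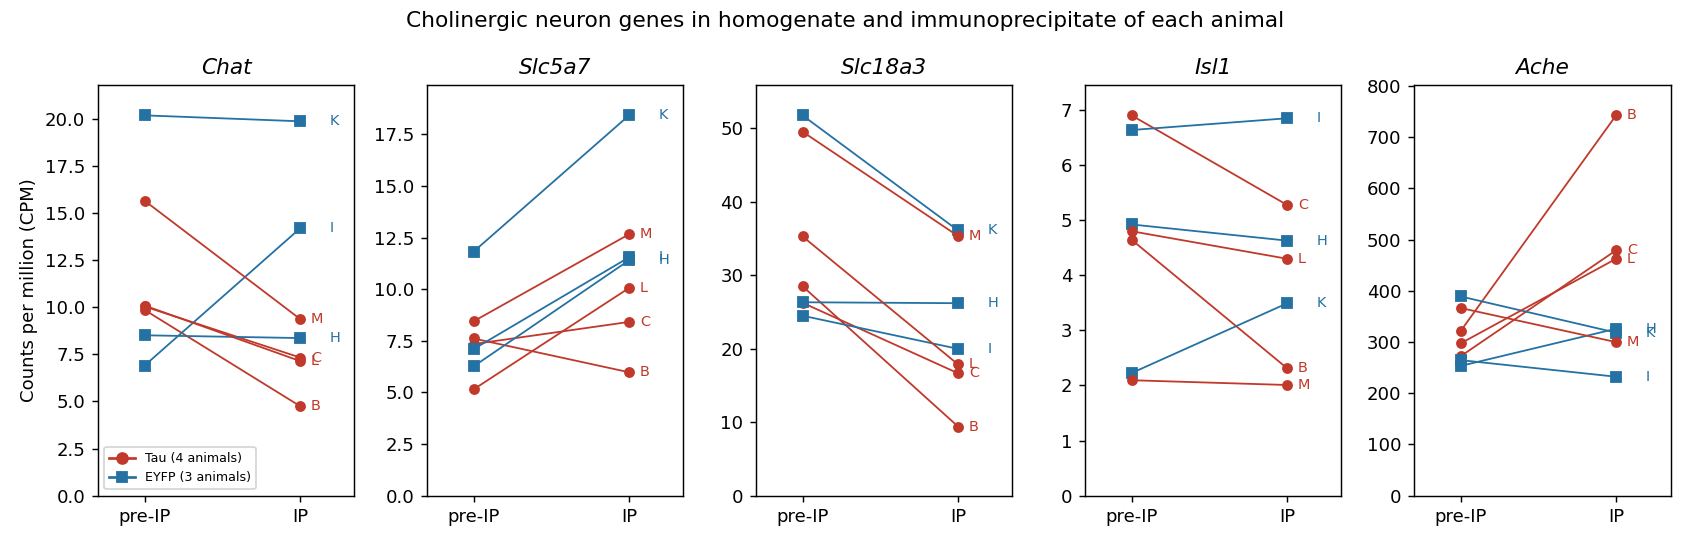
CPM of each gene in the pre-IP and IP library of each animal, with lines joining the libraries of an animal, circles for the 4 Tau animals and squares for the 3 EYFP animals; vertical axes differ between panels and start at 0. Chat fell along 4 of 4 Tau lines, Slc5a7 rose along 6 of 7 lines, and Ache reached 743 CPM in the IP library of Tau animal B.

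The libraries carry numbers in a lower range, up to 11 (animals B, C, H and I), and a higher range, from 17 (animals K, L and M), and the pre-IP levels of 2 of the 5 genes did not overlap between the ranges, as was the case for 21.2% of all genes tested. Slc18a3 had 24.5 to 28.5 CPM in the lower range and 35.3 to 51.8 CPM in the higher range, a log2 difference of 0.84. A two-sided exact permutation test over 35 arrangements of the animals gave p = 0.0286, the smallest this design can give, and 0.107 after adjustment over the 5 genes. Chat differed by 0.82 (exact permutation p = 0.0571, adjusted 0.107), with 6.90 to 10.04 CPM against 10.09 to 20.2 CPM. Isl1 differed by -0.93 and Ache by 0.40 (exact permutation p = 0.0857 for each, adjusted 0.107), and Slc5a7 by 0.25 (exact permutation p = 0.457). No gene passed the adjustment, and this comparison was added after the values had been seen. A list of 18 motor neuron genes, which holds Isl1, summed to 546 CPM in the pre-IP library of K, 360 in that of M and 283 to 339 in the other 5. Much of the sum came from the neurofilament gene Nefh, which had 69.9 to 250 CPM in pre-IP libraries. The sum is therefore no measure of the amount of motor neuron tissue. Whether the numbers stand for a sequencing run, a dissection or a cohort is not given in the sources used here.

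Levels can be set against each other only per length of exon. Per kilobase in the homogenate, Ache had 66.9 ± 11.3 CPM, Slc18a3 14.3 ± 4.77, Chat 2.47 ± 0.987, Slc5a7 1.36 ± 0.373 and Isl1 1.16 ± 0.478 (mean and SD over 7 animals). The order of the first 4 was the same in each of the 7 animals, and the last step was not resolved: Slc5a7 stood above Isl1 in 3 of 7 animals. Slc18a3 exceeded Chat, its host gene, by 5.003 to 6.92 times per kilobase. The precipitate kept Ache (88.4 ± 37.2 CPM per kilobase) and Slc18a3 (9.57 ± 4.13) in front in each animal. There Chat (2.16 ± 1.10) and Slc5a7 (1.99 ± 0.689) could no longer be ordered, since Chat was above Slc5a7 in 3 of 7 animals. Isl1 (1.04 ± 0.428) was below Slc5a7 in all 7. The ratio of Slc5a7 to Chat per kilobase was 0.425 to 0.857 in pre-IP libraries and 0.679 to 1.17 in IP libraries.

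The first comparison asks what the immunoprecipitation did to these genes. Slc5a7, the choline transporter, rose in IP over pre-IP, while its partner in the terminal, the vesicular transporter Slc18a3, was lower in IP in 6 of 7 animals after scaling of the libraries. Chat, Isl1 and Ache had no common direction over the animals. In the IP libraries Slc5a7 had 5.98, 8.42, 10.1 and 12.7 CPM in B, C, L and M and 11.4, 11.5 and 18.4 CPM in H, I and K. It was above its own pre-IP level in each animal but B. By edgeR's quasi-likelihood test over 18792 genes in all 14 libraries, with treatment as a term, the log2 fold change was 0.55 (SE 0.20, adjusted p = 0.0461). In this fit, which does not pair the libraries of an animal, Slc5a7 was the only 1 of the 5 genes to pass the threshold of 0.05. Of all tested genes 31.0% passed it. The call lay near the threshold: adjusted p ran from 0.0699 to 0.125 without animal C, H, I, L or M, one at a time, and was 0.0540 without a filter on low counts.

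Slc18a3 had 9.41, 16.7, 17.9 and 35.4 CPM in the IP libraries of B, C, L and M and 26.2, 19.99 and 36.1 CPM in those of H, I and K. Animal B kept the least of its pre-IP level, and animal H kept nearly all of it. The log2 fold change was -0.58 (SE 0.26, edgeR adjusted p = 0.106), which did not pass. With the animal as a block, which compares each precipitate with its own homogenate, it was -0.60 (SE 0.15, edgeR adjusted p = 0.00884) and passed, as did Slc5a7 at 0.57 (adjusted p = 0.0116); 32.6% of all genes passed in that fit. Slc18a3 also passed with the library-number range as a covariate (-0.57, edgeR adjusted p = 0.0164), as did Slc5a7 (0.53, edgeR adjusted p = 0.0224). In that fit 6383 of 18792 genes passed.

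The synthesising enzyme Chat had 4.75, 7.33, 7.14 and 9.37 CPM in the IP libraries of B, C, L and M and 8.36, 14.2 and 19.9 CPM in those of H, I and K. It was below its pre-IP level in all 4 Tau animals and near or above it in the EYFP animals. Over both treatments its log2 fold change was -0.25 (SE 0.28, edgeR adjusted p = 0.530). Isl1 had 2.31, 5.28, 4.30 and 2.01 CPM in B, C, L and M and 4.63, 6.85 and 3.49 CPM in H, I and K, and its log2 fold change was -0.13 (SE 0.29, adjusted p = 0.776 by edgeR). Its largest loss was in animal B and its largest gain in animal K, and the value was -0.04 without B and -0.20 without K. The Chat value over both treatments was -0.16 without B, -0.14 without M and -0.42 without I.

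Ache, the enzyme of breakdown, had 743, 479, 462 and 300 CPM in the IP libraries of B, C, L and M and 326, 232 and 318 CPM in those of H, I and K. Tau animals B, C and L stood above all others, and these are the animals in which the noradrenergic genes rose most. M had less Ache than H and K, and its noradrenergic genes rose more than theirs. Noradrenergic enrichment went with treatment in these animals, and its part in the Ache values was not tested. The log2 fold change over both treatments was 0.42 (SE 0.22, edgeR adjusted p = 0.169), and it was 0.19 without animal B. When each treatment was fitted alone, no member passed in either: 6.38% of all genes passed in the EYFP animals and 20.7% in the Tau animals. In the Tau animals alone Ache was 0.74 (SE 0.27, edgeR adjusted p = 0.0758) and Chat -0.64 (SE 0.24, edgeR adjusted p = 0.0884), and in the EYFP animals alone they were -0.07 and 0.22 (adjusted p = 0.897 and 0.804).

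The members were then compared with each other within the same animal, after the values had been seen, by the difference of their log2 IP over pre-IP values. Slc5a7 was above Slc18a3 in 7 of 7 animals, by 1.16 ± 0.37 (SD), with a range of 0.85 to 1.94. Slc18a3 was below Ache in 7 of 7 animals, by a mean of -0.97 ± 1.02. For each the two-sided exact sign-flip permutation test over 128 sign assignments gave p = 0.0156, the smallest it can give, and 0.0625 after adjustment over the 10 pairs. Chat minus Slc5a7 was -0.76 ± 0.58 (exact permutation p = 0.0313, adjusted 0.0625), with Chat above Slc5a7 in animal I alone, whose IP library had the low RNA integrity number. Chat and Slc18a3, which share a locus, differed by 0.40 ± 0.51 (exact permutation p = 0.0938, adjusted 0.156). No pair passed the adjustment.

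The second comparison, named in the study's design, sets Tau IP against EYFP IP. Chat was lower and Ache higher in the Tau precipitates, but no gene at all passed the adjustment by edgeR, and the groups overlapped for each of the 5 members. Of 19472 genes tested, 0 (0%) passed, 2336 had an unadjusted p under 0.05 and 15.6% had groups that did not overlap. Chat stood at 7.15 ± 1.89 CPM in the Tau precipitates and at 14.1 ± 5.75 CPM in those of EYFP (SD, n = 4 and 3), a log2 fold change of -0.90 (SE 0.32, unadjusted p = 0.0188, edgeR adjusted p = 0.338). Ache was 496 ± 183 CPM against 292 ± 52.0 CPM, a log2 fold change of 0.89 (SE 0.31, unadjusted p = 0.0174, edgeR adjusted p = 0.333). The groups met at M, whose Chat level of 9.37 CPM was above that of H and whose Ache level of 300 CPM was inside the EYFP range. Slc5a7 (-0.49), Isl1 (-0.42) and Slc18a3 (-0.39) had edgeR adjusted p-values of 0.524 to 0.711. Their size rested on single animals: without K, Slc5a7 was -0.21, Slc18a3 -0.13 and Isl1 -0.64. Slc18a3 was -0.17 without B and -0.81 without M, and Isl1 was -0.14 without I, -0.23 without M and -0.68 without C.

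DESeq2 called 411 genes in this comparison, Ache among them (log2 fold change 0.93, adjusted p = 0.0479). It gave no adjusted p for Chat (log2 fold change -0.87), Slc5a7, Slc18a3 or Isl1, so none of these could be called. Without animal K the Chat value was -0.57, and without animal B the Ache value was 0.57. The noradrenergic list summed to 1070 to 7168 CPM in Tau IP and 564 to 642 CPM in EYFP IP, and all 12 of its genes had an unadjusted p under 0.05. The 6 oligodendrocyte genes summed to 3634 to 10300 CPM in Tau IP against 8822 to 13120 CPM in EYFP IP, and the 6 genes of other neurons to 315 to 559 CPM against 696 to 784 CPM. No gene of these 3 lists was at 0 in all libraries. Their part in the values of Chat and Ache was not tested. Within the lower range of library numbers the Tau minus EYFP difference in IP was -0.68 for Chat and 1.31 for Ache (log2), and within the higher range, which holds 1 EYFP animal, it was -1.25 and 0.25.

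**Figure D2:**
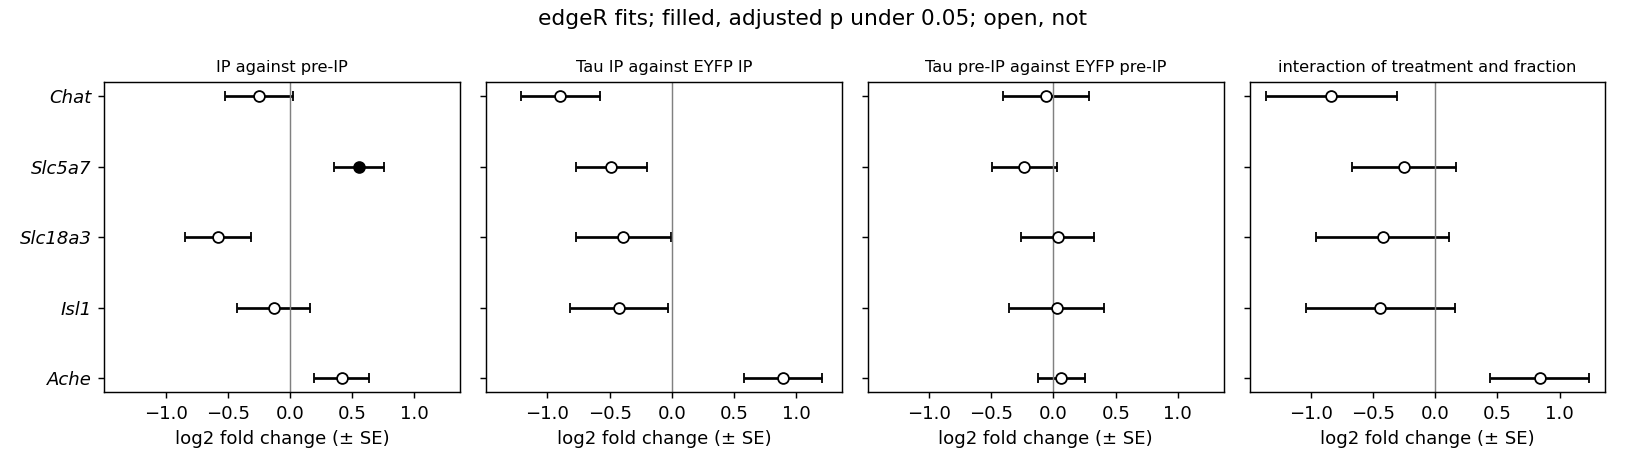
Log2 fold change of each member with its standard error in the 4 main edgeR fits, without pairing by animal. A filled point passed an adjusted p of 0.05 and an open point did not. The only filled point is Slc5a7 at 0.55 in IP against pre-IP, and in the homogenate the Tau against EYFP points lie between -0.23 and 0.06.

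In the homogenate the 5 genes were close to equal between treatments. Log2 fold changes of Tau over EYFP ran from -0.23 (Slc5a7, SE 0.26) to 0.06 (Ache, SE 0.19), with edgeR adjusted p-values of 1.0. Of 19197 genes 0 (0%) passed, 2.84% had an unadjusted p under 0.05 and 3.12% had groups that did not overlap, none of them a member. The standard errors of 0.19 to 0.38 exceeded the differences. Each of the 5 genes changed sign when some single animal was left out, Chat for example going to 0.64 without K. By library-number range, the Chat difference was 0.42 in the lower range and -0.72 in the higher.

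The interaction asks whether IP over pre-IP differed between Tau and EYFP animals. Across 20495 genes, 0 (0%) passed by edgeR and 5.97% had an unadjusted p under 0.05. Ache had an interaction of 0.84 (log2, SE 0.40, unadjusted p = 0.0516, edgeR adjusted p = 0.820) and Chat of -0.84 (SE 0.53, unadjusted p = 0.133, edgeR adjusted p = 0.837). Isl1 (-0.44), Slc18a3 (-0.42) and Slc5a7 (-0.25) were smaller than their standard errors. Without animal B the Ache value was 0.48 and the Slc5a7 value -0.13. Slc5a7 was -0.41 without L, and Slc18a3 was -0.67 without K and -0.64 without M. With the animal as a block 0 genes passed and 8.51% had an unadjusted p under 0.05, and Chat was -0.92 (SE 0.30, unadjusted p = 0.0104, edgeR adjusted p = 0.531). In that fit Slc18a3 was -0.56 (SE 0.25, unadjusted p = 0.0489, edgeR adjusted p = 0.582), Ache 0.73 (SE 0.36), Isl1 -0.51 (SE 0.34) and Slc5a7 -0.29 (SE 0.29), so 2 of the 5 members had an unadjusted p under 0.05.

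Per animal, the IP over pre-IP values of 2 of the 5 members, Chat and Isl1, did not overlap between treatments, as was the case for 10.5% of all genes. Both were lower in each Tau animal than in each EYFP animal. Lists of other cells also had negative median interactions (log2) in the main edgeR fit, against -0.05 over all genes. They were -0.60 (serotonergic), -0.51 (other neurons), -0.50 (astrocyte), -0.59 (oligodendrocyte), -0.57 (microglial) and -0.23 (vascular). The noradrenergic median was 2.62. The reason for this shift was not tested. The Chat values were -0.79, -0.38, -0.46 and -0.77 (log2) in Tau animals B, C, L and M and 0.03, 0.99 and -0.08 in EYFP animals H, I and K. The means were -0.60 ± 0.21 and 0.32 ± 0.59, a difference of -0.92 (two-sided exact permutation test, p = 0.0286, the smallest that 35 arrangements can give; adjusted over the 5 genes, 0.143). The difference was -1.10 within the lower range of library numbers, -0.54 within the higher, and -0.58 without animal I. Isl1 had -0.74, -0.31, -0.12 and -0.09 in B, C, L and M against -0.03, 0.00 and 0.58 in H, I and K. It differed by -0.50 (exact permutation p = 0.0571, adjusted 0.143) and by -0.31 without animal K, with Tau animal M and EYFP animal H close together. Slc18a3 differed by -0.56 (p = 0.143 by the same exact test) and Slc5a7 by -0.29 (p = 0.400), with overlap in each. Slc5a7 differed by -0.70 within the lower range of library numbers and by 0.19 within the higher, by -0.12 without B, -0.19 without H and -0.48 without L. Ache, with values of 1.46, 0.89, 0.67 and -0.32 in B, C, L and M against 0.42, -0.23 and -0.35 in H, I and K, differed by 0.73 (exact permutation p = 0.171) and by 0.46 without animal B. Animal M, with the weakest noradrenergic enrichment of the Tau animals, had the lowest Ache value among them. Its Ache value was also below those of EYFP animals H and I, whose noradrenergic enrichment was weaker still, and just above that of K. Whether Ache and noradrenergic enrichment are linked was not tested.

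**Figure D3:**
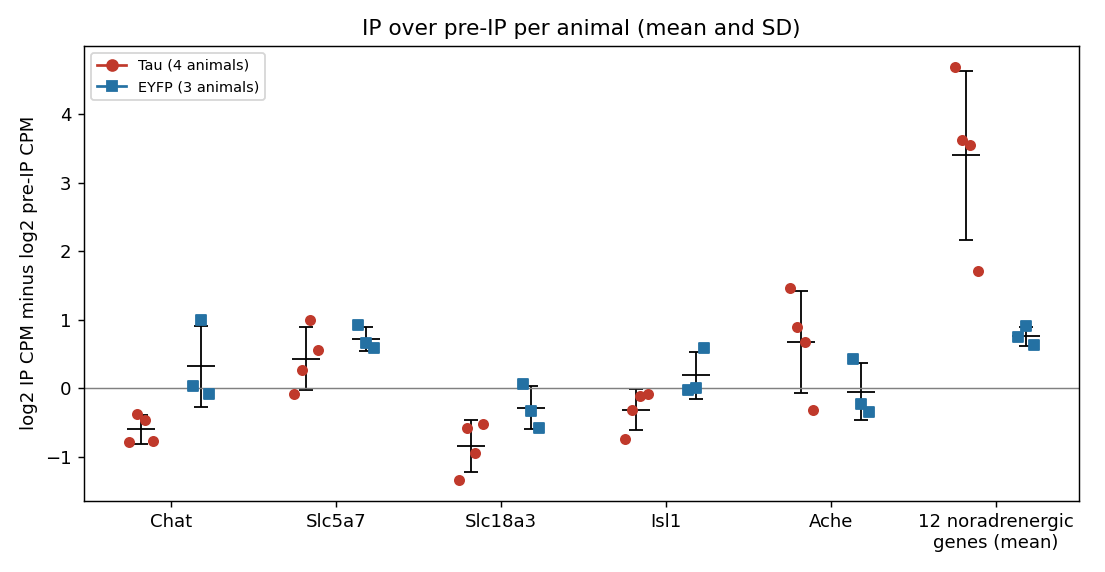
Log2 IP over pre-IP per animal for the 5 members and, at the right, the mean over 12 noradrenergic genes; circles are Tau animals, squares EYFP animals, and bars the mean and SD. Chat points of the Tau animals (-0.79 to -0.38) lie below those of the EYFP animals (-0.08 to 0.99), and no member reaches the noradrenergic values of 3.55 to 4.69 in Tau animals B, C and L.

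Other genes of acetylcholine supply and breakdown were split in IP against pre-IP. Of 12 genes, all tested, 2 were higher and 2 lower in IP, with a median log2 fold change of -0.08 against -0.00 over all genes; 16.3% of all genes were called higher and 14.7% lower. Bche, the butyrylcholinesterase that also splits acetylcholine, rose by 0.91 (SE 0.24, edgeR adjusted p = 0.00977), beside Slc5a7. Slc44a2, a choline transporter of the plasma and mitochondrial membranes, fell by 0.79, and Pcyt1a, an enzyme that takes choline into phosphatidylcholine, fell by 0.49. Prima1 and Colq, the anchors of acetylcholinesterase, did not pass over both treatments (-0.38 and 0.43). In the Tau animals alone Colq rose by 1.11 (SE 0.31, edgeR adjusted p = 0.0297), and in the EYFP animals alone it was at -0.55 (edgeR adjusted p = 0.374).

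Nicotinic receptor subunits, which form the ion channels opened by acetylcholine, also moved both ways. Of 16 genes 11 were tested, 2 were higher in IP and 3 lower, with a median of -0.09. Among all genes 16.3% were called higher and 14.7% lower. Chrna6 rose by 1.78 (SE 0.43, edgeR adjusted p = 0.00520) and Chrnb3 by 1.45 (SE 0.43, edgeR adjusted p = 0.0188), subunits that catecholamine neurons are known to make. In IP libraries Chrna6 had a mean of 40.7 CPM in Tau and 10.03 CPM in EYFP animals, and Chrnb3 13.3 and 3.57 CPM. Chrna7 (-0.76) and Chrnb2 (-0.72), widespread subunits of the brain, fell. The rise of Chrna6 was 2.65 in the Tau animals alone (edgeR adjusted p = 0.00817) and 0.52 in the EYFP animals alone (edgeR adjusted p = 0.166), and the noradrenergic list rose over the same animals.

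None of the 5 muscarinic receptors, which act through G proteins, passed, and their median was -0.51. Chrm2 and Chrm1, the most abundant, were at 0.19 and 0.00. The Chrm1 value joined opposite directions. It was -0.97 in the EYFP animals alone (edgeR adjusted p = 0.0764) and 0.68 in the Tau animals alone (edgeR adjusted p = 0.267). Of 8 chaperones and modulators of nicotinic receptors, Ly6h rose by 0.49 and Lynx1 (-0.78), Lypd6 (-0.76) and Lypd6b (-0.40) fell. Among all genes 16.3% were called higher and 14.7% lower. Lynx1 is a membrane-tethered protein that restrains these receptors. Its level was 656 to 825 CPM in pre-IP and 245 to 575 CPM in IP libraries.

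**Figure D4:**
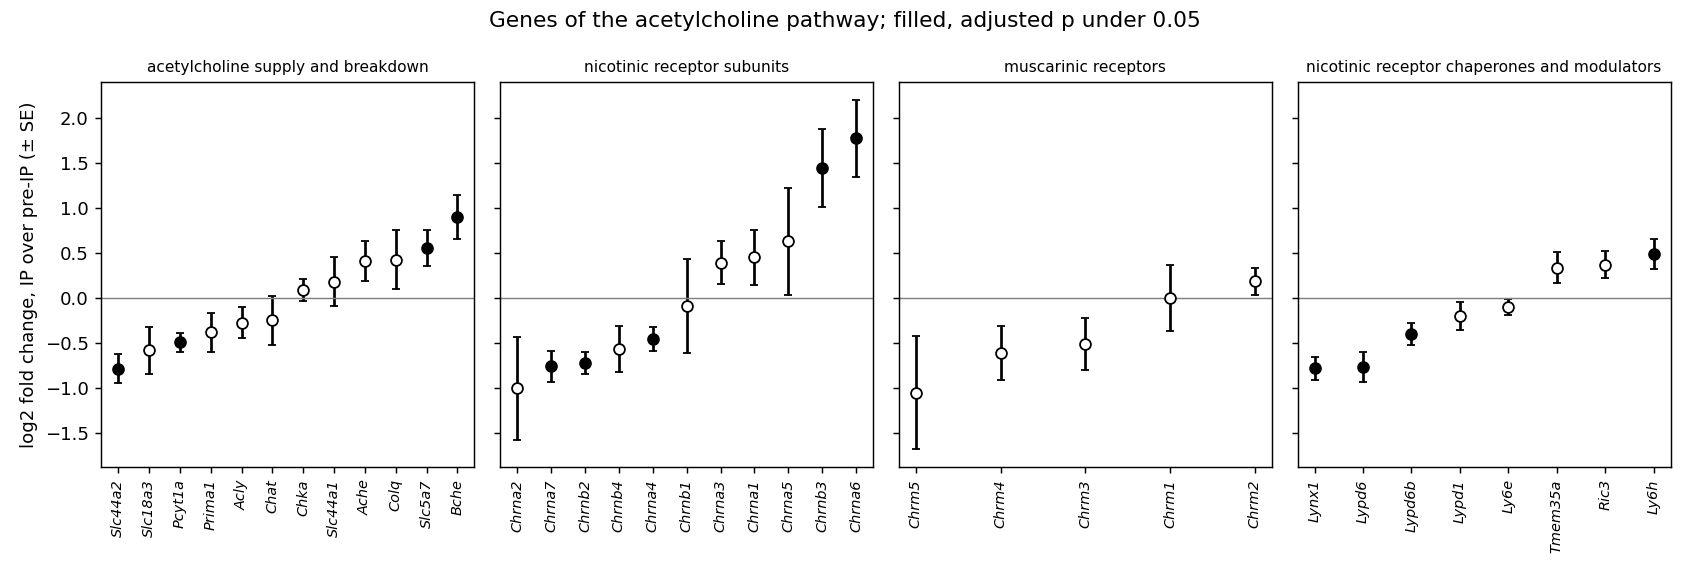
Log2 fold change of IP over pre-IP with its standard error for the tested genes of 4 acetylcholine lists, ordered within each list; filled points passed an edgeR adjusted p of 0.05. Called genes lie on both sides of 0 in 3 lists, from Slc44a2 at -0.79 to Chrna6 at 1.78, and no muscarinic receptor is filled.

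Markers of the 2 main classes of brainstem cholinergic neurons were examined to see whether they moved with the members. Of 18 motor neuron genes 16 were tested, 3 were higher in IP and 1 lower, with a median of 0.04. Among all genes 16.3% were called higher and 14.7% lower. Calca, which encodes the peptide CGRP, rose by 2.39, Chodl by 2.10 and Nefh, a neurofilament, by 0.74, and Gfra1 fell by 0.66. Calca and Chodl rose by 3.70 and 3.09 in the Tau animals alone and were at 0.44 and 0.68 in the EYFP animals alone (edgeR adjusted p = 0.336 and 0.178). In IP libraries Calca had a mean of 345 CPM in Tau and 36.4 CPM in EYFP animals, and Chodl 52.8 and 11.6 CPM. The median of the whole motor neuron list in Tau IP against EYFP IP was -0.31, against -0.08 over all genes. The noradrenergic list rose over the same animals as Calca and Chodl, and which cells gave their RNA was not tested. Mnx1 and Hoxb1, a pair of motor neuron transcription factors, had too few counts to be tested. Of 10 genes of mesopontine and forebrain cholinergic neurons, such as Nos1, 0 passed and the median was -0.36. The noradrenergic list was the contrast: all 12 genes rose, with a median of 2.33. No gene of the acetylcholine, motor neuron, mesopontine or noradrenergic lists passed in the main edgeR fits of Tau against EYFP or of the interaction. Of the 5 members DESeq2 called only Ache, in Tau IP against EYFP IP, where it gave the other members no adjusted p. For these comparisons the other listed genes are given from the main fits only. Of the markers of other cells, 1 of 5 serotonergic, 1 of 6 other neuronal, 2 of 6 oligodendrocyte and 3 of 6 microglial genes were lower in IP than in pre-IP and 0 were higher, and the 6 astrocyte and 6 vascular genes each had 1 higher and 1 lower.

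Genes whose level followed each member across libraries were found among 15081 genes by Pearson correlation of log2 CPM, as a description only, since the libraries share their animals and number ranges. Over the 7 pre-IP libraries the nearest to Chat were Plin2 (r = 1.00) and Sord and Rmc1 (0.99 each), and those to Slc18a3 were Crtac1, Tmem185b and Cacng5 (0.99 each). Slc5a7 had Itih5, Tm9sf2 and Serinc5 (0.97 each), Isl1 had Spata2l (0.99), Arl4a and Rbm27 (0.98 each), and Ache had Atp6ap1 (1.00), Arsg and Tmx2 (0.99 each). Over all 14 libraries the genes were others. Chat had Capn2 (0.93), Anxa4 and Anxa6, Slc5a7 had Spp1 (0.94), Nefm and Dcn, and Slc18a3 had Stac2 (0.97), Chi3l1 and Gpd1. Isl1 had Dlx1 (0.93), Tafa4 and Tac2, and Ache had Slc25a1 (0.98), Plin2 and Pld3. Dlx1, a homeobox gene known from forebrain interneurons, ranged from 0 to 8.16 CPM.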

How the data were processed

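Count values are whole numbers of reads per gene and library in the table the authors deposited, not normalized; it holds 55421 mouse genes and 1 human tau construct. The submitters' processing notes name FastQC, Trim Galore, STAR and featureCounts with the builds GRCm38 and mm10; versions, strand setting and the treatment of multimapping reads are not given in the sources used here. Libraries were made with SMART-Seq and Nextera XT kits, per the labels' protocols, and these add no molecular identifiers. The floor of 3 counts covers counting error only. The SDs and SEs also hold the spread between animals or libraries. The RNA integrity number (a score of RNA quality) and the percent of GC and of reads of high quality come from the deposited sheet of samples, per the file headers. Columns were read by position, since 2 stray empty cells stand in the header line of the counts; the construct counts equalled the sample sheet in all 14 libraries.

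Symbols came from the deposited gene table, and 3669 of 3766 entries without one were named from GENCODE M21. Libraries were grouped by the labels. Tests across genes used edgeR 4.0.16 in R 4.3.3 (quasi-likelihood F test, low counts removed by filterByExpr, scaling by the trimmed mean of M-values (TMM), Benjamini-Hochberg adjustment over all genes tested, threshold 0.05); all 5 members passed the filter in each fit. CPM values are counts per 1000000 counts of the library; per-animal log2 values used TMM and a prior count of 2. Standard errors (SE) were the log2 fold change divided by the root of the F statistic.

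The animal letter pairs the fractions of an animal. Deviations from the group means correlated at 0.15 (B) to 0.36 (K) between the fractions of an animal, over 20495 genes; of 18 pairs of libraries within groups, the most alike had a chi-square of 24.6 per degree of freedom, so none was a duplicate. The members and the 13 gene lists were chosen with earlier results of these data known. The rule for naming genes took the 5 members, up to 4 called genes per list with the largest changes, or the 2 most abundant where none was called, and the 3 genes nearest in correlation at a mean of at least 1 CPM. Prima1, Colq, Mnx1, Hoxb1 and Nos1 were named outside it.

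On simulated counts with 200 genes changed by 2 (log2), edgeR recovered 97.5% in IP against pre-IP (18419 genes) and 80% in Tau IP against EYFP IP (18682). It recovered 97.5% in pre-IP (18882) and 67.5% in the interaction (20038). In the same order, 2.01, 8.05, 6.25 and 2.88% of its calls were false. Only genes above a minimum mean count were changed, and libraries were drawn independently, without pairing by animal or an animal of weak enrichment. These shares therefore check the fit and do not give its power in the real libraries. Alternatives were DESeq2 1.42.0, its size factors in edgeR, no filter, each animal left out, the library-number range as covariate, the animal as block, each treatment alone, and, per animal, a prior count of 0.5 and library totals without TMM. The comparisons of library-number ranges and of member pairs were added after the data were seen. Summed CPM of the lists of serotonergic, astrocyte, microglial and vascular genes was also computed.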

Additional observations from a re-analysis of the deposited data

Results flagged for a closer look

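Chat in the pre-IP libraries of the Tau animals had 1 value far from the other 3. Animal M had 15.7 CPM, and its gap to the next animal was 0.960 of the whole range of the group, above the critical value of 0.829 for 4 samples. Of such groups of libraries, 15 were examined, and chance gives about 1 such value in 20 groups. The same library of an animal labelled female held 674 Y-linked counts.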

How the results depend on the processing

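Direction held for the 5 members under the listed alternatives in Tau IP against EYFP IP, the interaction and the per-animal test. The only adjusted p below 0.05 in these was that of Ache by DESeq2 in Tau IP against EYFP IP (0.0479). There DESeq2 gave the other members no adjusted p, and they were counted as not called. Within the higher range of library numbers the per-animal value of Slc5a7 was 0.19 in place of -0.29. Of the values of single members in the edgeR and DESeq2 fits, 212 kept direction and call, 17 changed sign, 8 lost a call (all Slc5a7 in IP against pre-IP) and 3 gained one. The cause of these changes was not tested. Members called in IP against pre-IP were 1, but 0 without a filter, 0 in EYFP animals only and 0 in Tau animals only. They were 2 with the library-number range as a covariate, where 6383 of 18792 genes were called. With the animal as replicate block, the paired analysis, 2 members were called (Slc5a7 and Slc18a3); it changed no other member call, in the interaction included. Leaving out each animal gave 0 to 1. EYFP animals only gave 1218 called genes in place of 5828, and there Chat was at 0.22, Isl1 at 0.12 and Ache at -0.066. In Tau IP against EYFP IP, where edgeR called 0 genes, DESeq2 called 411 genes and 1 member (Ache), no filter gave 113 genes, and leaving out animals 0 to 128, the highest without M. In pre-IP, no filter gave 44 genes, DESeq2 0 (621 at an unadjusted p under 0.05) and leaving out animals 0 to 1; Slc18a3 was at -0.049 with the library-number covariate. Leaving out animals there moved Chat from -0.34 to 0.64, Slc5a7 from -0.44 to 0.15, Slc18a3 from -0.20 to 0.52, Isl1 from -0.29 to 0.41 and Ache from -0.085 to 0.34. In the interaction DESeq2 called 52 genes, no filter gave 67, and leaving out animals 0 to 56, the highest without M. Depth gave each member at least 105 counts in each library.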
